A study of Mus musculus with 8 samples.

Results

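The keratins of the interfollicular epidermis were examined in newborn mice with a mutant mitochondrial helicase in the skin. The set holds 10 genes taken by symbol: the basal keratins Krt5, Krt14 and Krt15, the suprabasal keratins Krt1, Krt10 and Krt2, and the stress keratins Krt6a, Krt6b, Krt16 and Krt17. A gene was measured where a probe set names it and no other gene, which held for 9 of the 10 keratins and for 22180 genes in all. Krt5, the type II keratin of basal cells, has no such probe set and is not among the 9. The rule used no measured value, but the keratins were chosen with earlier results of these arrays known, so no test was run on the groups as such.

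Total RNA of epidermis from C57BL/6J mice at postnatal day 0 was hybridised to 8 arrays. In 4 of them, labelled K320E-TwinkleEpi and called K320E here, the K320E mutant of Twinkle was expressed through the K14 promoter. Twinkle is a helicase that works at the replication fork of mitochondrial DNA. K14 is the protein of Krt14, so the promoter named belongs to a basal keratin that is itself in the set. The other 4 arrays came from control newborns with the genotype label R26-K320E-TwinkleloxP/+, which names an allele of the mutant as well. That label places the mutant at R26 with loxP, so the K14 promoter need not drive the mutant directly. Nothing in the labels says that the arrays of a genotype are different animals. The p-values therefore reflect the scatter of these 8 samples, part of which may be technical. Sex-linked transcripts, given below, differed among the arrays of each genotype, so these are not all repeats of a single RNA sample.

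Keratins are the intermediate filament proteins of epithelia. A type I keratin pairs with a type II keratin, and the pair in use changes as a keratinocyte moves outward: K5 with K14 in the dividing basal layer, K1 with K10 once cells leave it, and K2 in the upper layers of some body sites. K6, K16 and K17 are kept in the hair follicle and nail and appear between follicles after wounding, in psoriasis and in other states of barrier stress.

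All values below are the log2 intensities deposited by the authors, on which a difference of 1 is a doubling. Probe sets differ in brightness for the same amount of RNA, so levels of different keratins are not set against each other. The array medians lay between 6.06 and 6.11 and the brightest probe set of an array between 13.036 and 13.13. Twnk, the helicase gene, was at 8.905 to 9.281 in K320E and at 6.549 to 6.945 in controls, which fits the label of each array. Sex-linked transcripts differed between the arrays. K320E replicate 3 had a Y-linked mean of 8.641 with Xist at 6.837, and the other K320E arrays and control replicates 1 and 4 had Y-linked means of 4.754 to 4.824 with Xist at 12.068 to 12.274. Of the remaining controls, replicate 2 had both Xist (9.274) and a Y-linked mean of 9.054, and replicate 3 had little of either (6.169 and 4.749). The epidermal label was checked against keratinocyte markers other than keratins, such as Trp63, Dsc1 and loricrin (Lor). The means of these 10 genes lay between 8.41 (Col17a1) and 12.36 (Sbsn) in K320E and between 7.95 (Itgb4) and 12.37 (Dsc1) in controls, above the array medians. Of 6 dermal fibroblast markers, decorin (Dcn) was the brightest, at 10.94 ± 0.068 in K320E and 11.08 ± 0.24 in controls (SD over 4 arrays per group), and lumican (Lum) the dimmest, at 5.68 ± 0.25 in K320E and 5.59 ± 0.23 in controls, under the array medians.

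Of the 10 keratins, 4 have an entry in the RefSeq promoter table (assembly GRCm38.p6): Krt5, Krt14, Krt10 and Krt2. The 250 bases before each start were searched on both strands for the motifs of AP-1 (TGANTCA), the antioxidant response element (TGACNNNGC), STAT factors (TTCNNNGAA), AP-2 (GCCNNNGGC) and the TATA box (TATAAA). The starts of the Krt14, Krt10 and Krt2 entries lie 1480, 8085 and 787 bases inside the annotated span of their genes. Each of these windows, that of Krt10 included, may therefore not be the promoter at the annotated start of its gene. For the same reason the Krt14 window may not be the promoter named in the genotype. The only match was a TATA box in Krt10, beginning 26 bases before the start, a motif that 12.4% of the 32851 entries of the table hold. The other motifs occur in 6.75% (AP-1), 10.2% (antioxidant response element), 7.02% (STAT) and 13.7% (AP-2) of entries. The Krt10 window is shown because it holds that match. It lies at chr11:99389365-99389614 on the minus strand, with the TATA box in capitals.
Krt10: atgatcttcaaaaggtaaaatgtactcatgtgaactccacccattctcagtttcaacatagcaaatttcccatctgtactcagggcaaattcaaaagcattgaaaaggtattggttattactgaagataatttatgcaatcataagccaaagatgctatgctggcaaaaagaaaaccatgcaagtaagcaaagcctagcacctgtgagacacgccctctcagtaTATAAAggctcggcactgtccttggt

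Of the 9 keratins, the stress keratins Krt6a, Krt6b and Krt16 had the highest fold changes, the basal keratin Krt14 came next, above the stress keratin Krt17, and the basal keratin Krt15 had the lowest. The median log2 fold change, K320E minus control, was 1.24 over the 4 stress keratins, -0.0076 over the 3 suprabasal keratins and -0.019 over the 2 basal keratins measured, beside -0.00052 over all genes. Without control replicate 4, the lowest array for every stress keratin, the stress median was 0.72. None of the 9 keratins passed the test over all genes (limma adjusted p under 0.05), which 0.879% of genes did, 0.685% as higher and 0.194% as lower in K320E. At an unadjusted p under 0.05 there were 4 keratins with a positive and 2 with a negative fold change, against 8.77% and 6.06% of all genes. The groups did not overlap for 6 of the 9 keratins, as for 9.25% of all genes. The K320E arrays all lay above the controls for 4 keratins, as for 5.5% of all genes, and all lay below them for 2, as for 3.75% of all genes. Without control replicate 4 there were again 3 stress keratins and 1 basal keratin above the controls and 1 basal and 1 suprabasal keratin below them, against 6.86% and 5.72% of all genes.

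**Figure D1:**
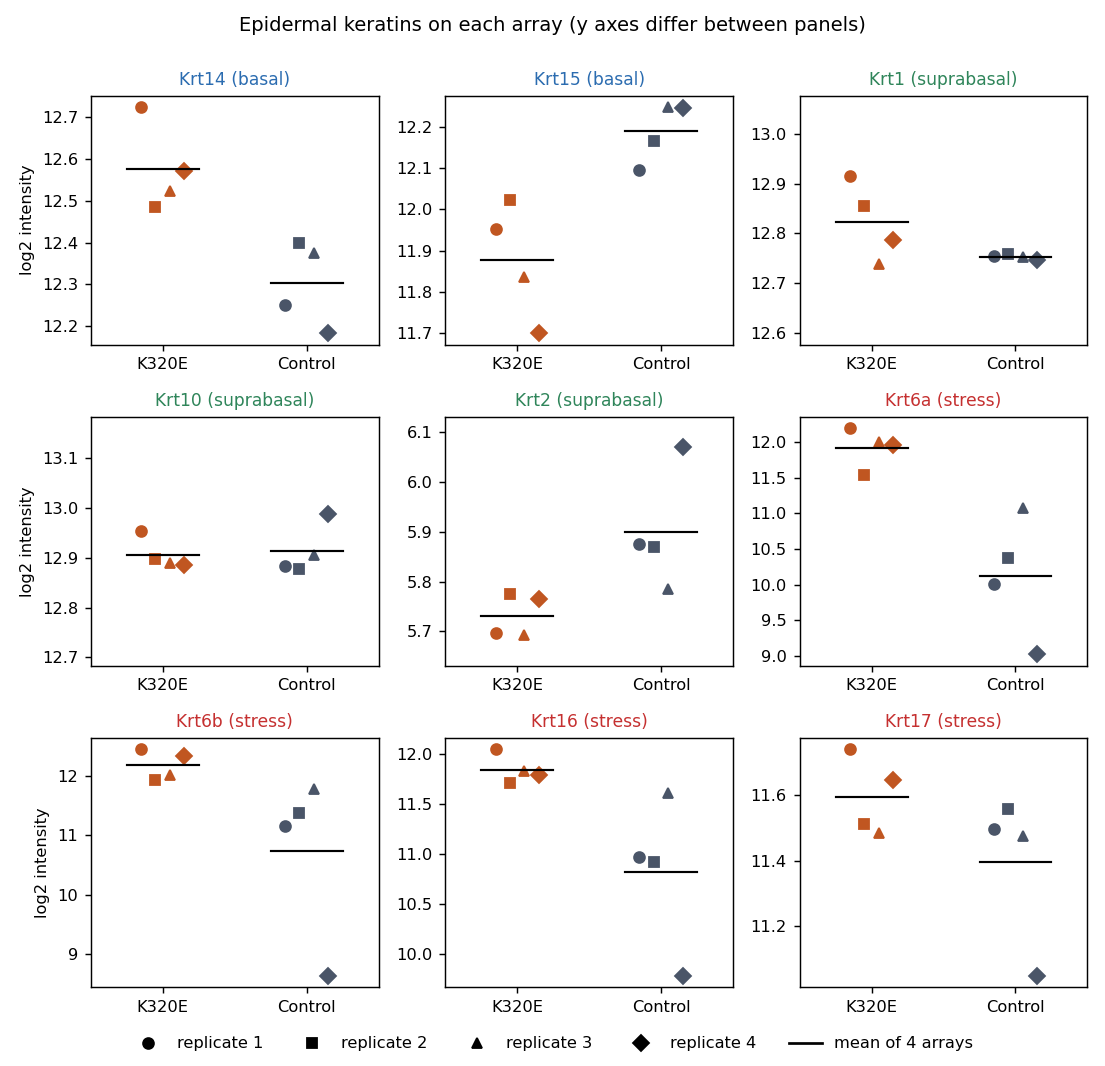
Log2 intensity of each of the 9 measured keratins on each of the 8 arrays. K320E arrays are on the left and controls on the right of each panel, symbols mark the replicate, the line is the mean of 4 arrays and each panel has its own y axis. Krt14, Krt6a, Krt6b and Krt16 are above every control in all 4 K320E arrays, Krt15 and Krt2 are below, and control replicate 4 is the lowest array for all 4 stress keratins.

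Krt6a, a type II keratin of the hair follicle that wounded epidermis switches on, had the largest fold change of the set. It was at 12.197, 11.533, 11.998 and 11.964 in the K320E arrays and at 10.011, 10.378, 11.071 and 9.021 in the controls. Every K320E array was above every control, and the controls were spread over 2.05 log2 units. The log2 fold change was 1.80 (SE 0.37, 95% interval from 0.98 to 2.63), or 3.49-fold, the 14th highest of 22180 genes, with a limma adjusted p of 0.065. Leaving out control replicate 3, the highest control, gave 2.12 with an adjusted p of 0.025, and without control replicate 4 the fold change was 1.44 (adjusted p = 0.056).

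Krt6b, the near-identical neighbour of Krt6a on chromosome 15, was at 12.447, 11.937, 12.019 and 12.34 in K320E and at 11.151, 11.377, 11.772 and 8.641 in controls. The groups did not overlap, but control replicate 4 stood more than 2 log2 units below the other controls. The log2 fold change was 1.45 (SE 0.58, 95% interval from 0.13 to 2.77; limma adjusted p = 0.29). Without control replicate 4 it was 0.75 (limma adjusted p = 0.13). Krt6a and Krt6b share long stretches of sequence, so the value of either alone is uncertain. A probe set annotated to both Krt6b and Gm5478 was dim, at 5.815 ± 0.154 in K320E and 5.677 ± 0.176 in controls (SD over 4 arrays per group).

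Krt16, the type I keratin that pairs with K6, likewise had its highest array in K320E replicate 1 and its lowest in control replicate 4. Its values were 12.047, 11.706, 11.831 and 11.793 in K320E and 10.972, 10.915, 11.609 and 9.783 in controls. Here too the groups did not overlap, with control replicate 3 close to the lowest K320E array. The log2 fold change was 1.02 (SE 0.32, 95% interval from 0.31 to 1.74; limma adjusted p = 0.18), or 2.03-fold. Without control replicate 4 it was 0.68 (limma adjusted p = 0.16).

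Krt17, a type I keratin of the outer root sheath that is also induced by injury, differed less. It was at 11.74, 11.512, 11.484 and 11.645 in K320E and at 11.495, 11.557, 11.476 and 11.048 in controls. Of the K320E arrays, 2 were above all controls and the rest lay within the control range. The log2 fold change was 0.20 (SE 0.12, 95% interval from -0.059 to 0.46; limma adjusted p = 0.47). It was 0.086 without control replicate 4, which stood apart from the other controls.

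**Figure D2:**
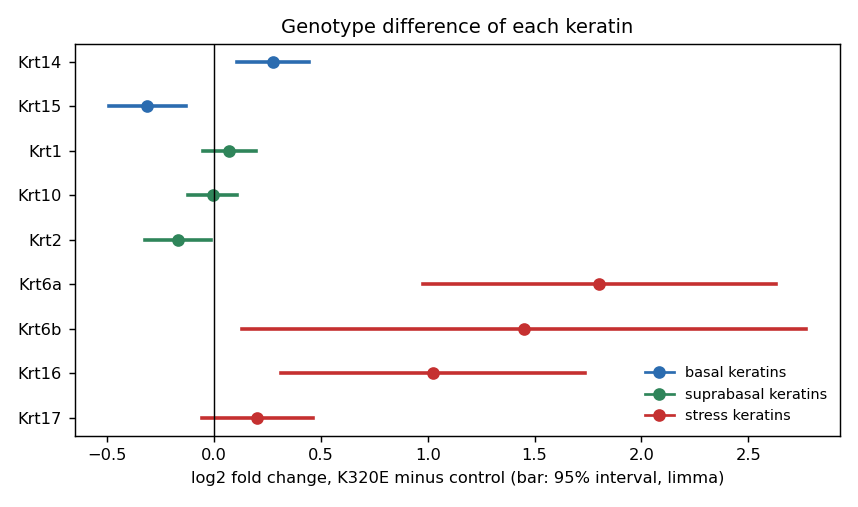
Log2 fold change of each keratin, K320E minus control, with its 95% interval from limma (4 arrays per genotype). The intervals of Krt6a, Krt6b and Krt16 lie above 0 and are wide, that of Krt14 lies above 0 and those of Krt15 and Krt2 below it, and those of Krt1, Krt10 and Krt17 include 0.

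The basal keratins Krt14 and Krt15, both type I, differed in opposite directions. Krt14 was at 12.724, 12.485, 12.524 and 12.57 in K320E and at 12.251, 12.399, 12.376 and 12.183 in controls. All K320E arrays were above all controls, by a log2 fold change of 0.27 (SE 0.075, 95% interval from 0.11 to 0.44; limma adjusted p = 0.14), or 1.21-fold. Krt15, which marks quiescent basal cells and the hair follicle bulge, was at 11.953, 12.024, 11.835 and 11.699 in K320E and at 12.096, 12.167, 12.249 and 12.247 in controls. All K320E arrays were below all controls, by a log2 fold change of -0.31 (SE 0.079, 95% interval from -0.49 to -0.13; limma adjusted p = 0.12), or 0.805-fold.

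The difference of Krt14 minus Krt15 within each array, a pair chosen after the values were seen, was 0.771, 0.461, 0.689 and 0.871 in K320E and 0.155, 0.232, 0.127 and -0.064 in controls. The offset of such a difference carries the brightness of both probe sets and only its shift between genotypes can be read. That shift was 0.586 on the log2 scale, and the groups did not overlap. The probe set annotated to both Krt5 and Krt6a was at 12.579, 12.405, 12.325 and 12.293 in K320E and at 12.234, 12.276, 12.319 and 12.168 in controls. Its log2 fold change was 0.15 (SE 0.072; limma adjusted p = 0.41 over all probe sets), and it was assigned to neither gene.

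The suprabasal pair was nearly level between the genotypes. Krt1, the type II keratin of spinous cells, was at 12.915, 12.854, 12.738 and 12.787 in K320E and at 12.754, 12.759, 12.753 and 12.747 in controls. The K320E arrays spanned the controls, which lay within 0.0123 of each other, and the log2 fold change was 0.071 (SE 0.055; limma adjusted p = 0.63). The 95% interval of that difference ran from 0.964-fold to 1.14-fold. Krt10, its type I partner, was at 12.953, 12.897, 12.889 and 12.886 in K320E and at 12.884, 12.878, 12.906 and 12.988 in controls. Its log2 fold change was -0.0076 (SE 0.051; limma adjusted p = 0.97), with an interval from 0.918-fold to 1.08-fold, and its sign was positive under quantile normalisation (0.023), median centring (0.0049) and without control replicate 4 (0.017).

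Both probe sets sat at the top of the scale. Only 3 of 33793 probe sets had a higher mean than that of Krt10 and 12 a higher mean than that of Krt1, and Krt10 came within 0.084 of the brightest probe set of an array. Whether differences are compressed at this brightness was not tested. Krt2, the type II keratin of the upper layers, was at the other end: 5.696, 5.775, 5.692 and 5.765 in K320E and 5.876, 5.87, 5.786 and 6.07 in controls, on each array under the median of that array (6.088 in control replicate 4). Its groups did not overlap, with a log2 fold change of -0.17 (SE 0.069, 95% interval from -0.32 to -0.013; limma adjusted p = 0.30), and it was -0.11 without control replicate 4, the highest array.

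Partner keratins were next compared within each array. Krt6a minus Krt16 was 0.15, -0.173, 0.167 and 0.171 in K320E and -0.961, -0.537, -0.538 and -0.762 in controls. The type II member thus had the larger fold change, by 0.778 on the log2 scale, the genotypes did not overlap, and without control replicate 4 the shift was 0.76. Krt6b minus Krt17 was 0.706, 0.425, 0.536 and 0.695 in K320E and -0.343, -0.18, 0.295 and -2.406 in controls, again without overlap. Its shift of 1.25 was 0.67 without control replicate 4 and 1.97 without control replicates 2 and 3 together. Krt1 minus Krt10 was -0.082 ± 0.053 in K320E and -0.161 ± 0.056 in controls (SD over 4 arrays per group), a shift of 0.078 (0.051 without control replicate 4) with overlapping groups.

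**Figure D3:**
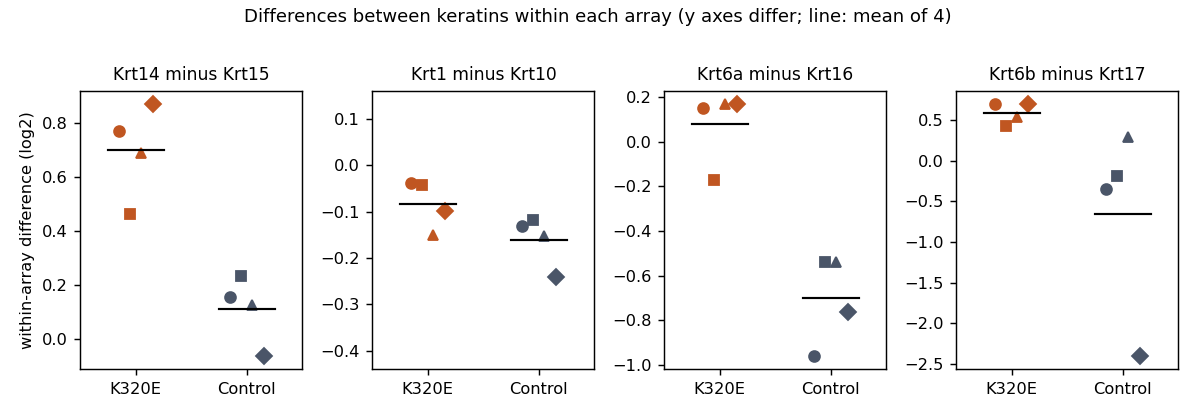
Difference between a pair of keratins within each array on the log2 scale, K320E on the left and controls on the right of each panel. Circles, squares, triangles and diamonds mark replicates 1 to 4, the line is the mean of 4 arrays and each panel has its own y axis. Krt14 minus Krt15, Krt6a minus Krt16 and Krt6b minus Krt17 lie above all controls in all K320E arrays, while Krt1 minus Krt10 overlaps.

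The keratins also varied among arrays of the same genotype. Over the deviations of the 8 arrays from their genotype means, Pearson's r between the stress keratins ran from 0.786 (Krt6a with Krt17) to 0.961 (Krt6a with Krt16). Krt2 ran against them, with r of -0.952 with Krt6a, -0.925 with Krt6b, -0.967 with Krt16 and -0.776 with Krt17. Krt2 was under the median of each array, however, and spanned only 0.083 log2 units in K320E and 0.28 in controls, where replicate 4 was highest. Krt14 had r of 0.666 to 0.801 with the stress keratins and of 0.017 with Krt15, so the basal keratins did not vary as 1 group. Krt1 and Krt10 had r of 0.396. These are descriptions of 8 arrays that share their normalisation, and control replicate 4 weighs heavily in each relation with a stress keratin.

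Genes whose deviations were most like those of the stress keratin mean were Bcar1 (r = 0.979), an adaptor of integrin signalling, the cornified envelope genes Sprr2e (0.974) and Sprr2b (0.969), and the cystatin Csta3 (0.963), over the same 8 arrays. These are the highest r of a search over all named genes outside the lowest 33.3% by mean level. Of these, Sprr2e rose in K320E, by 1.60 (SE 0.18, limma adjusted p = 0.0068), Bcar1 had a log2 fold change of 0.31 (adjusted p = 0.18), Csta3 of 1.02 (adjusted p = 0.33) and Sprr2b of -0.047 (adjusted p = 0.94) in limma. For the suprabasal mean the nearest genes were Elovl3 (0.976), a fatty acid elongase, Dnajc28 (0.972), Rgmb (0.970) and the cold-inducible RNA-binding protein gene Cirbp (0.967). Elovl3 is also used below as a sebocyte marker. Among the suprabasal keratins, Krt1 had r of -0.034 with Krt2 and 0.396 with Krt10, and Krt10 had 0.577 with Krt2. Their mean is therefore not a pattern shared by all members. Krt14 and Krt15 had an r of 0.017 with each other, so their mean is not a shared pattern. Nearest to it were Zdhhc9 (0.989), Pmvk (0.989), a kinase of the mevalonate pathway, the small heat shock protein gene Hspb1 (0.988) and Tuba8 (0.985). Since that mean drew r as high as the others, a high r from such a search does not show a shared pattern. None of these 8 genes passed the test, their limma adjusted p running from 0.0945 (Elovl3) to 0.941 (Zdhhc9).

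Keratins of other epithelia were measured as well. Among 20 other epithelial keratins 0 passed the test in either direction and 12 had a positive fold change, as had 11050 of all 22180 genes. The median was 0.053, or 0.13 without control replicate 1 and 0.11 without K320E replicate 2. The brightest members were Krt23, at 10.979 ± 0.107 in K320E and 10.985 ± 0.301 in controls (SD over 4 arrays per group), and Krt79, a keratin of the hair canal, at 10.463 ± 0.297 in K320E and 10.572 ± 0.133 in controls. Krt78, an epidermal type II keratin named after its value was seen, had groups that did not overlap and a log2 fold change of 0.52 (limma adjusted p = 0.18). Krt9, the keratin of palm and sole, had the highest fold change of this list, 0.78, with an SD of 1.28 among the K320E arrays (limma adjusted p = 0.56).

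Keratins of the hair shaft and inner root sheath had negative fold changes, though 0 of 15 hair shaft keratins and 0 of 9 inner root sheath genes passed the test. All 24 fold changes were negative, whereas 11050 of all 22180 genes had a positive one. Both list means were highest in control replicate 4, and the 24 signs are not independent observations. Several of the genes were under the array medians in K320E, such as Krt31 at 5.36 and Krt74 at 5.52. The median was -0.48 for the hair shaft and -1.16 for the inner root sheath. Without control replicate 4 the medians were -0.27 and -0.76, and without control replicates 2 and 3 together -0.93 and -1.83. Trichohyalin (Tchh), which hardens the inner root sheath, was at 9.226 ± 0.297 in K320E and 10.543 ± 0.672 in controls, and Krt25 at 9.028 ± 0.297 in K320E and 10.192 ± 0.777 in controls (SD over 4 arrays per group). Krt34, the brightest hair shaft keratin by its mean over the 8 arrays, was at 7.314 ± 0.287 in K320E and 8.579 ± 1.070 in controls. Krt35 was at 7.420 ± 0.307 in K320E and 7.904 ± 0.564 in controls.

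**Figure D4:**
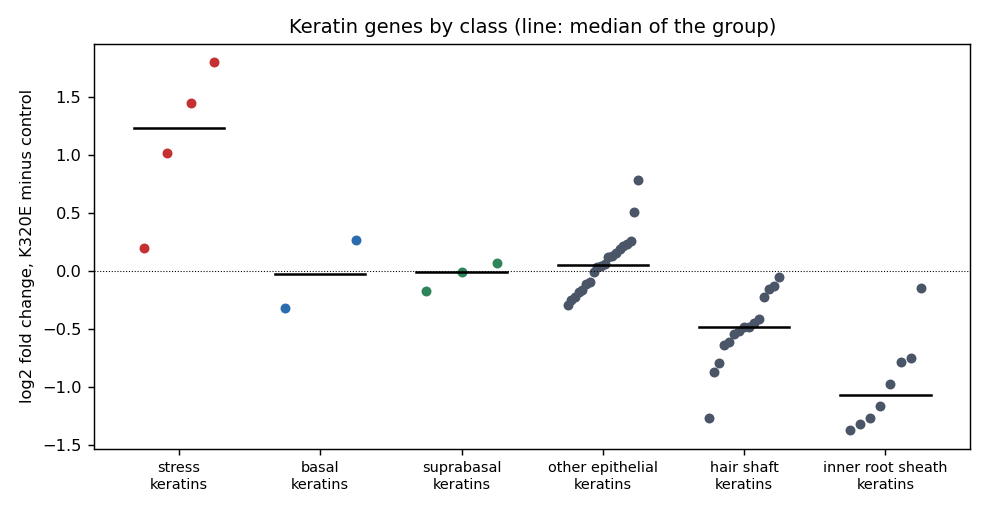
Log2 fold changes, K320E minus control, of the keratin genes of each class, 1 point per gene, with the class median as a line (Tchh is left out of the inner root sheath). The stress keratins reach from 0.20 to 1.80, the basal and suprabasal keratins stay between -0.31 and 0.27, and every hair shaft and inner root sheath keratin is below 0.

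Among the controls, the 2 arrays with the highest hair follicle level had the lowest stress keratins, an order that the K320E arrays did not show. The mean of the 24 hair structure genes was 6.938, 6.79, 6.688 and 7.036 in K320E and 7.664, 7.081, 7.182 and 8.305 in controls, so the genotypes did not overlap in it. The stress keratin mean was 11.672 to 12.108 in K320E and 10.907 to 11.482 in control replicates 1 to 3, while control replicate 4, the highest array for hair structure, was the lowest for it, at 9.623. In K320E, replicates 4 and 1 had the highest hair structure means and also the highest stress keratin means (11.936 and 12.108). Replicates 2 and 3 were at 11.672 and 11.833. Within genotypes, r with the hair structure mean was -0.812 for Krt6a, -0.847 for Krt6b, -0.804 for Krt16 and -0.683 for Krt17, and 0.846 for Krt2 and 0.730 for Krt10 (8 arrays). These r pool both genotypes and do not describe the K320E arrays alone. With the hair structure mean as a covariate the log2 fold change was 0.93 for Krt6a, -0.011 for Krt6b, 0.28 for Krt16 and -0.013 for Krt17, and their median was 0.13. Since the genotypes do not overlap in the hair structure mean, this fit cannot fully tell genotype and hair level apart. It also takes a common slope for both genotypes, although the order of the arrays differed between them. In bulk epidermis, fewer cells of a type and less RNA per cell cannot be told apart.

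**Figure D5:**
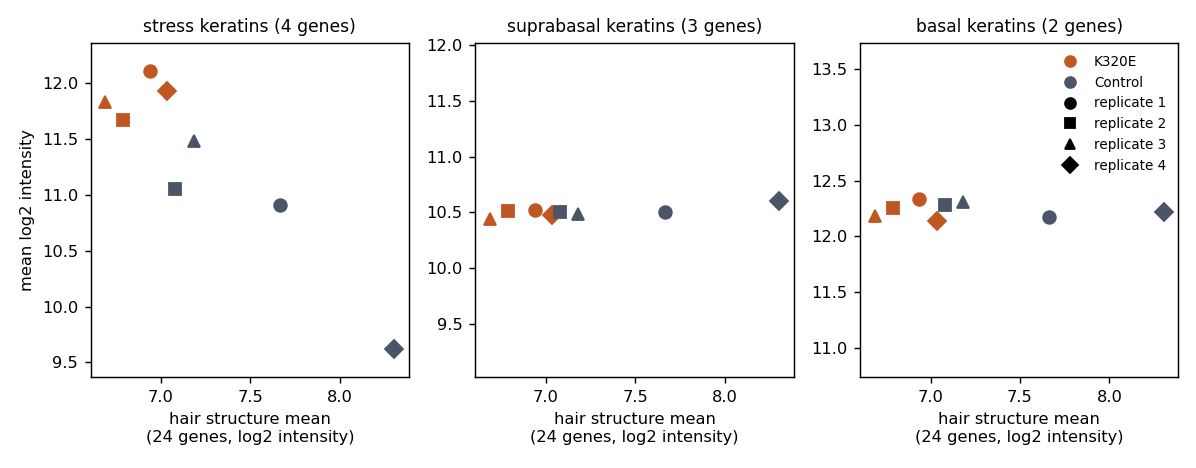
Mean log2 intensity of each keratin class against the mean of the 24 hair structure genes on the same array. Each point is 1 array, coloured by genotype and shaped by replicate, and the 3 y axes span the same range. The stress keratin mean is 9.623 in control replicate 4, where the hair structure mean is 8.305, while the suprabasal and basal means stay nearly flat on this scale. Their members differ in r with the hair structure mean within genotypes: 0.846 for Krt2, 0.730 for Krt10, 0.043 for Krt1, -0.024 for Krt15 and -0.557 for Krt14.

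Proteins that hold keratin filaments and factors that act on keratin genes were followed as the surroundings of the set. Of 14 filament anchors (desmosomal plaque proteins, plakins and filaggrin-type proteins), 0 passed the test, 9 had positive fold changes and the median was 0.17, or 0.092 without K320E replicate 1. Desmoplakin (Dsp), which ties keratins to the desmosome, was at 12.576 ± 0.095 in K320E and 12.458 ± 0.038 in controls, and hornerin (Hrnr) at 12.196 ± 0.059 in K320E and 12.281 ± 0.093 in controls (SD over 4 arrays per group). Of 17 regulators of keratin genes, 1 rose and 0 fell, and 16 had positive fold changes (median 0.25). Over all genes, 0.685% were called higher and 0.194% lower, and 11050 of 22180 had positive fold changes. The riser was Nfe2l2, which encodes the antioxidant factor NRF2, at 10.008 ± 0.163 in K320E and 9.514 ± 0.032 in controls (SD over 4 arrays per group), by 0.49 (SE 0.081, limma adjusted p = 0.031). Trp63, the master factor of the basal layer, had a log2 fold change of -0.032 and Tfap2a of 0.11 (limma adjusted p = 0.87 and 0.71).

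Of 6 chaperones and cross-linkers, 0 passed the test and the median was 0.0010, with -0.059 to 0.053 over the fits that leave out an array. Transglutaminase 1 (Tgm1), which cross-links proteins into the cornified envelope, had a log2 fold change of 0.54 and Tgm3 of -0.19 (limma adjusted p = 0.074 and 0.70).

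Markers of other cells that epidermal sheets can hold also differed, and their part in the keratin values was not tested. Of 3 Langerhans cell markers, 2 were lower in K320E by the test, as were 0.194% of all genes. Both are MHC class II genes: H2-Aa fell by 1.05 (limma adjusted p = 0.0021) and H2-Ab1 by 0.98 (limma adjusted p = 0.013). The remaining marker, Cd207 (langerin), had a log2 fold change of -0.067 (limma adjusted p = 0.69). Cd207 was at 5.58 in K320E and 5.65 in controls, under the array medians. The list mean was 5.8628 to 6.0579 in K320E and 6.5601 to 6.7149 in controls. In the other lists 0 genes passed. T cell markers had a median log2 fold change of -0.75 (Cd3g -1.19), melanocyte markers of -0.40 (Mlana -0.40) and sebocyte markers of -0.45 (Scd1 -0.64), with list means of 5.7972 to 6.5199, 8.6299 to 9.0381 and 6.4766 to 6.7646 in K320E and 6.4676 to 7.1674, 8.9219 to 9.4703 and 6.9038 to 7.9078 in controls. Skeletal muscle (median 0.91, Tnnt3 1.03), adipocyte (0.57, Fabp4 1.24), mast cell (0.35, Kit -0.012), fibroblast (0.19, Dcn -0.14) and endothelial markers (0.19, Cdh5 0.10) had positive medians, with list means in K320E that overlapped those of the controls. Without K320E replicate 3 these medians were 0.47, 0.0056, 0.12, 0.10 and -0.045, and without control replicate 4 that of mast cells was 0.18 and that of fibroblasts 0.11. Without control replicates 2 and 3 together, the medians were 1.58 for muscle, 0.35 for fibroblast and -0.92 for sebocyte markers. The 7 neutrophil markers had a median of 0.0085, with Cxcr2 at 1.32 (limma adjusted p = 0.15), and a list mean of 5.6733 to 5.7498 in K320E and 5.3238 to 5.6442 in controls. The other neutrophil markers had log2 fold changes from -0.019 (Elane) to 0.20 (Ngp), so the gap in the list mean came mostly from Cxcr2. Ly6g, Ngp, Camp and Csf3r were under the array medians. The neutrophil granule genes Mpo and Elane were at 5.585 ± 0.109 and 5.844 ± 0.066 in K320E and at 5.577 ± 0.113 and 5.864 ± 0.109 in controls (SD over 4 arrays per group), on each array under the median of that array. The median was -0.13 for macrophage markers (Cd68 0.51), -0.051 for Merkel cell markers (Krt20 -0.29) and 0.093 for keratinocyte markers (Dsc1 -0.067). Over the fits that leave out an array these ran from -0.21 to 0.00088, from -0.078 to -0.010 and from 0.024 to 0.14, and the neutrophil median from -0.0033 to 0.076.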

How the data were processed

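The authors deposited log2 intensities of 33793 probe sets on 8 arrays, 4 per genotype. Per the labels, a Maxwell 16 LEV simplyRNA kit gave the RNA, which was amplified by NuGEN Applause WT-Amp Plus ST and biotin-labelled. How background was corrected and values normalised is not given in the sources used here. Values were used as deposited.

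Probe sets were named through GEO's platform annotation: 23521 carry 1 symbol, 1814 several and 8458 none. For each gene the single-symbol probe set with the highest mean over the 8 arrays was kept (22180 genes; each keratin had 1). The test was limma's (version 3.58.1, R 4.3.3; lmFit, then eBayes; genotype as the only term, Benjamini-Hochberg over all genes, threshold 0.05), with fold changes as K320E minus control. The number of arrays limits the precision. On simulated data for this comparison (22180 genes, 200 changed) the fit recovered 76.7% of 1.5-fold, 93.9% of 2-fold and 100% of 4-fold changes, with 14 false calls. The changes were given to randomly drawn genes, with independent noise at the SD of each gene. These rates do not hold for genes as variable as Krt6a, Krt6b and Krt16, whose SDs among controls were 0.85, 1.42 and 0.76.

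Members, lists and tests were chosen with earlier results of these data known. Beyond the keratins, the text names called members and the 2 brightest members of each list (the brightest marker of each cell type) and the 4 genes most like each keratin class; any other gene was chosen after its values were seen. Of 165 list entries 157 were measured. The difference of Krt5 and Krt14 was not computed, since Krt5 has no probe set of its own.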

Additional observations from a re-analysis of the deposited data

Results flagged for a closer look

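Of 24 sets of 4 arrays (9 keratins and 3 class means in each genotype), 2 held an array far from the other 3, about as many as chance gives at 1 in 20. Krt17 was at 11.048 in control replicate 4, below the other controls by 0.842 of the group's range. Krt10 was at 12.953 in K320E replicate 1, above the other K320E arrays by 0.838 of a range of 0.0675.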

How the results depend on the processing

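The median log2 fold change of the stress keratins ran from 0.72 (without control replicate 4) to 1.54 (without control replicate 3) over the 8 fits that leave out an array, that of the suprabasal keratins from -0.023 to 0.017 and that of the basal keratins from -0.057 to 0.011. Leaving out control replicates 2 and 3 together, chosen after seeing the data, gave 1.88 for the stress keratins and a Krt6a fold change of 2.41 (limma adjusted p = 0.021). Krt6a also passed with the lowest 33.3% of genes left out (0.027) and without control replicate 3 (0.025); under all settings its adjusted p ran from 0.021 to 0.43, and no other keratin passed under any. With the hair structure mean as a covariate the medians were 0.13 (stress) and 0.045 (suprabasal), and the signs of Krt10 (0.045), Krt6b (-0.011) and Krt17 (-0.013) turned. Krt10 also turned under quantile normalisation (0.023), median centring (0.0049) and without control replicate 4 (0.017). Genes called over the whole table, 152 higher and 43 lower, were 3 and 2 with the hair covariate, 66 lower with the dimmest 33.3% left out and 25 lower with the Y-linked covariate. They ran from 44 to 147 higher and from 9 to 33 lower without single arrays, the fewest in both without K320E replicate 3; the causes were not tested beyond the loss of an array. The deviations of same-numbered arrays had r of -0.065 to 0.14 over genes. Differently numbered arrays were not compared, so whether the numbers pair the arrays was not settled. With the replicate block 84 genes were called higher, and the block changed no call of a keratin. Other alternatives kept every keratin's sign and its side of the threshold. The depth of an array is its signal over background, which the deposited values do not give.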
